A study of Rattus norvegicus with 3 samples.

Results

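The regions described here are DLX3 peaks that flank the promoter mark without touching it, in the enamel organ of adult wild-type rats. Members were chosen by the width and position of called peaks alone, so their widths and distances from the mark are descriptions. A DLX3 peak was included when it was narrower than 4000 bp, overlapped no H3K4me3 peak, and had its nearest H3K4me3 peak 1 to 10000 bp away from edge to edge, where adjoining peaks are 1 bp apart. Of the 69263 DLX3 peaks in the list, 14854 met this rule, which is 21.8% of the 68122 peaks under the width limit (95% Wilson interval 21.5 to 22.1%). The study comprises 3 chromatin immunoprecipitation sequencing (ChIP-seq) libraries from enamel organs dissected out of the ever-growing lower incisors: an input without antibody, a DLX3 library and an H3K4me3 library. The aim of the series, from its title, was to find where DLX3 binds in this tissue. The titles name DLX3 and H3K4me3 but the antibody field reads anti-DLX4 and anti-H3K4me4, and the titles were followed. Each antibody was used once, without replicate libraries, so no difference below can be set against a spread between animals. Intervals cover counting error only, and neighbouring peaks are not independent. Read depth cannot be recovered from the lists, and a weak site may be missing from either list. The input library was not analysed here. A genome sequence and annotation of rn5, the build of the peak lists, were not used here, so regions are given by position, counted from 1, without genes or sequences.

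DLX3 is a homeodomain transcription factor of epithelial appendages. In the tooth it is expressed in ameloblasts, the epithelial cells that lay down enamel matrix, and mutations of human DLX3 cause tricho-dento-osseous syndrome, in which enamel is thin. Trimethylation of histone H3 at lysine 4 gathers around the start sites of active genes, and low levels also occur at some enhancers. A transcription factor peak beside such a mark can therefore lie in the body of a gene, upstream of it, or at a separate regulatory element nearby.

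The limits of the rule fell within continuous ranges. The outermost members were a 923 bp peak on chromosome 4 (178375148 to 178376070, score 101.5) and a 1322 bp peak on chromosome 7 (139411625 to 139412946, score 283.2), both 10000 bp from the mark. The first peak beyond the limit, on chromosome 7 (69598759 to 69599138, score 119.7), lay 10003 bp away. At the inner limit, peaks on chromosome 2 (142508301 to 142509045, score 59.4) and chromosome 3 (11666883 to 11668523, score 114.5) stopped 2 bp from the mark. Just outside the inner limit, a peak on chromosome 10 (5634598 to 5636676, score 160.4) overlapped H3K4me3 by 1 bp. The widest member, on chromosome 16 (6879202 to 6883199), measured 3998 bp with a score of 90.7. The narrowest peak left out for its width, on chromosome 1 (273699564 to 273703578), measured 4015 bp with a score of 660.8. Of the peaks at the same distances, 246 were left out for width, and their median score was 397.9. The width limit therefore left out peaks of higher typical score than the members have.

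Of the 10 flanking DLX3 peaks with the highest scores, 7 lay beside an H3K4me3 peak from the lowest score quartile of its list. Of all members, 33.3% did, and of members in the highest score decile of DLX3 peaks under the width limit, 38.0%. The score is the authors' deposited value per peak and is used only to rank or describe peaks within its own list. On chromosome 5 (153215979 to 153217219), a member of 1241 bp reached the highest score, 1198. It lay 2868 bp from an H3K4me3 peak that scored 58.5, near the bottom of its list, and that held a DLX3 peak of 60.15. The second, of 3434 bp on chromosome 17 (11779240 to 11782673), also scored 1198 and lay 4664 bp from a strong H3K4me3 peak of 4335 bp with a score of 3100. The third, on chromosome 1 (151567221 to 151570390), scored 1159 and lay 4163 bp from an H3K4me3 peak of score 177.9. The fourth was on chromosome 16 (71191811 to 71193856, score 1084), 9398 bp from an H3K4me3 peak of score 61.9. A peak on chromosome 11 (90278741 to 90279942, score 1066) lay nearest of the 10, at 1878 bp. The others among the 10 were on chromosome 2 (223449178 to 223452407, score 1050, and 97685639 to 97687359, score 972), chromosome 9 (17650739 to 17652901, score 1016), chromosome 19 (60791611 to 60795128, score 980.8) and chromosome 7 (99500198 to 99501457, score 976.6). In 9 of the 10 the nearest H3K4me3 peak held a DLX3 peak of its own, and the exception was the peak on chromosome 19. This is near the share of 77.5% over all members and 82.0% in their highest score decile. The peak inside the mark beside the first chromosome 2 site scored 2546, above its flanking neighbour.

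Strong members could also sit directly at the edge of the mark. Among the 1486 members in the upper 10% by score, the nearest was on chromosome 8 (71393895 to 71396105, score 319.3), 3 bp from an H3K4me3 peak of score 765.5 that held no DLX3. The next were on chromosome 12 (38662860 to 38665723, score 320.3) at 20 bp, chromosome 4 (210108607 to 210110816, score 251.4) at 21 bp, chromosome 14 (100545519 to 100546351, score 325.7) at 23 bp and chromosome 10 (72110782 to 72112361, score 381.2) at 42 bp. The H3K4me3 peaks beside these 4 held DLX3 peaks whose highest scores were 397.5, 300.7, 465.4 and 403.9. In each of these 4 places the peak on the mark outscored the one beside it.

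As a class, flanking peaks were weaker than peaks on the mark and of moderate width, and in score they were close to DLX3 peaks farther from the mark. Their median score was 84.0 (quartiles 62.0 and 135.3), against 82.2 (61.6 and 129) for peaks 10 to 100 kb away, 79.2 for those over 100 kb away, and 136.4 (83.0 and 241.6) for peaks on the mark, all under the same width limit. Scores of flanking peaks ranged from 50 to 1198, and 176 exceeded 500. Width decreased with distance from the mark, from a median of 1414.5 bp on it to 991 bp in the flank, 871 bp at 10 to 100 kb and 694 bp beyond. Wider peaks score higher, so scores were also compared among peaks of similar width. From 729 to 991 bp the median was 74.4 in the flank, 93.2 on the mark and 79.1 at 10 to 100 kb. From 991 to 1404 bp the medians were 86.8, 121.4 and 93.65, and above 1404 bp they were 131.8, 182.4 and 141.3. At a given width above 729 bp the flanking peaks thus had the lowest median of these 3 classes, and their slightly higher overall median went with their greater width. Up to 729 bp the medians of flank and 10 to 100 kb were 66.55 and 66.3.

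The median score varied little along the flank. The median was 84.3 at 1 to 500 bp, 84.8 at 1001 to 2000 bp, 84.8 at 4001 to 6000 bp and 81.9 at 8001 to 10000 bp. Peaks directly beside the mark and those several kilobases out thus had similar medians. Median width went from 994 bp at 1 to 500 bp to a highest value of 1045.5 bp at 1001 to 2000 bp and 946 bp in the outermost bin.

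Among DLX3 peaks off the mark, the flank held about as many as displacements of up to 100 kb gave. For comparison, all narrow DLX3 peaks off the mark were moved together by 20, 40, 60, 80 and 100 kb in either direction. The distances were then measured again. The moved peaks keep their spacing among themselves, but not to the DLX3 peaks on the mark, which stay in place. Which marks hold DLX3 is therefore the same in every displacement. These 10 displacements describe the lists and yield no p-value. Of the 51174 narrow DLX3 peaks off the mark, 29.0% lay within 1 to 10000 bp of it. After displacement the share of those still off the mark was 28.7% on average and ranged from 27.3 to 29.7%, so the observed value fell inside that range, at a ratio of 1.01. The fine profile differed a little from this total. Between 2001 and 3000 bp the observed share was 3.02%, below all 10 displacements (3.07 to 3.42%), and the ratio was 0.930. Between 8001 and 10000 bp it was 4.965%, above all 10 (4.27 to 4.84%), with a ratio of 1.096. When every narrow DLX3 peak was displaced, those on the mark included, the share in the flank was 21.8% observed against 27.8% displaced (26.5 to 28.8%), a ratio of 0.785. In that version 24.9% of the observed peaks are on the mark, against 7.52% after displacement. The part of this difference in the ratio of 0.785 was not tested.

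**Figure D1:**
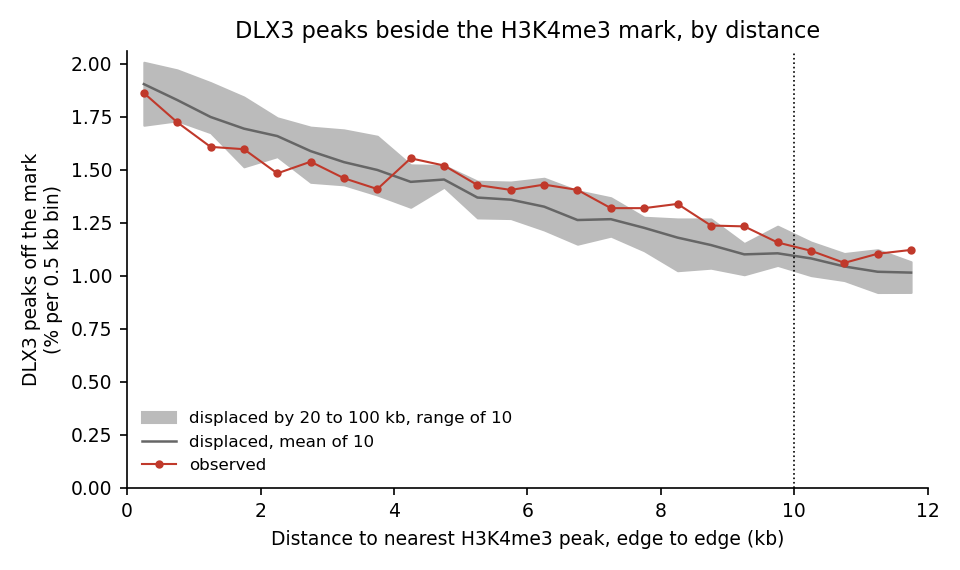
Share of narrow DLX3 peaks off the mark (y axis, % per bin of 0.5 kb) by edge-to-edge distance to the nearest H3K4me3 peak (x axis, kb). Red points are observed, the grey line is the mean and the grey band the range of 10 displacements, and the dotted line marks the 10 kb limit; the observed points lie under the mean line in every bin up to 4 kb and over it in every bin from 4 to 10 kb.

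The even total hid opposite patterns beside weak and strong H3K4me3 peaks. The H3K4me3 list was divided into 4 equal classes by score, from 50.01 to 94.55 in the weakest, 94.58 to 451.1 and 451.2 to 1872 in the next, and 1872 to 3233 in the strongest. Of the flanking DLX3 peaks, 33.3% (interval 32.5 to 34.0%) had a nearest H3K4me3 peak in the weakest class, and after displacement this was 26.8% on average (25.7 to 28.9%). The strongest class was the nearest for 22.96% (22.3 to 23.6%), against 27.8% after displacement (27.1 to 28.4%). Flanking DLX3 thus lay beside weak marks more often, and beside strong marks less often, than any of the 10 displacements gave. The excess beside weak marks was found at those that held a DLX3 peak of their own. As a share of off-mark peaks, flanking DLX3 stood at 1.46 times the displaced mean beside weakest-class marks that held DLX3 (range over displacements 1.21 to 1.71) and at 0.951 beside those that did not (0.914 to 1.003). Beside strongest-class marks both ratios were below 1, at 0.851 for holding marks (0.815 to 0.907) and 0.580 for the others (0.501 to 0.692). The latter rested on only 132 members. The displacements do not keep the spacing between off-mark DLX3 and DLX3 on the mark, and its part in these ratios was not tested.

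The shortfall beside strong marks was concentrated in the first 4 kb. Within 1 to 1000 bp of a mark of the strongest class, the observed share of off-mark DLX3 peaks was 0.626 of the displaced mean (range over displacements 0.585 to 0.660), and at 1001 to 2000 bp it was 0.612. At 2001 to 4000 bp the ratio was 0.708, at 4001 to 6000 bp 0.947, and at 8001 to 10000 bp 1.03. Beside the weakest class the ratio was 1.39 at 1 to 1000 bp (1.21 to 1.53) and between 1.19 and 1.275 in every bin from 1001 to 10000 bp. Split by content, the weakest class gave ratios of 1.34 to 1.615 in all 6 bins beside marks with DLX3 and of 0.822 to 1.05 beside marks without it. The second class stayed between 1.01 and 1.09, and the third went from 0.753 next to the mark to 0.985 at 4001 to 6000 bp. The split at 4 kb was chosen after the profile was seen: over 1 to 4000 bp the ratios from weakest to strongest class were 1.27, 1.03, 0.801 and 0.662, and over 4001 to 10000 bp they were 1.25, 1.05, 1.00 and 0.985. Over 1 to 4000 bp the ratios were 1.48, 1.22, 0.873 and 0.681 beside holding marks and 0.949, 0.732, 0.602 and 0.334 beside the others, so the order of the classes was the same in both and the others stood lower in each class. The value of 0.334 (range over displacements 0.295 to 0.382) rested on few peaks, 0.07035% of those off the mark.

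**Figure D2:**
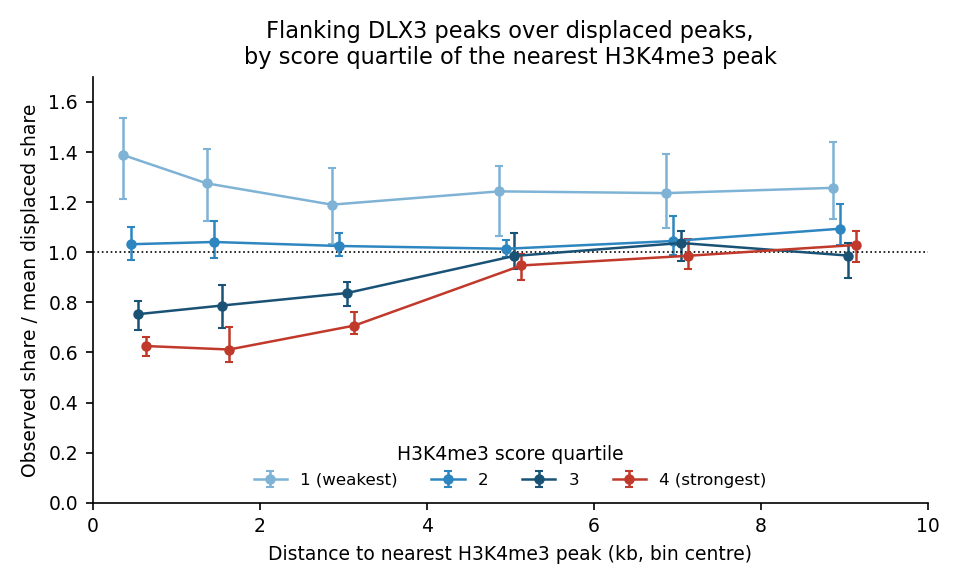
Observed share of off-mark DLX3 peaks divided by the mean share after 10 displacements (y axis) by distance to the nearest H3K4me3 peak (x axis, kb), for the 4 score classes of that H3K4me3 peak. Points are ratios, bars span the ratios to the highest and lowest displacement, and points of a bin are offset sideways; next to the mark the weakest class stands at 1.39 and the strongest at 0.626.

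Several measured properties accompany this pattern. Strong H3K4me3 peaks were wider, with a median of 2721.5 bp in the strongest class and 1037 bp in the weakest. Among H3K4me3 peaks wider than the median of their list, the ratio within 4 kb was 1.48 for the weakest class and 0.678 for the strongest. Among the others it was 1.23 and 0.437. The weakest class stood above the strongest in both sets. A DLX3 peak that overlaps the mark and runs past its edge occupies flank that no member can take. Such peaks covered on average 0.726% of the 4 kb on either side of strongest-class marks and 2.72% beside the weakest class. Among holding marks, 75.6% of the weakest class had DLX3 past the edge, against 16.7% of the strongest. Holding marks of these classes therefore differed in how often DLX3 ran past the edge, and mark width differed between the classes as well. The part that mark width, occupied flank or merging of nearby DLX3 signal into 1 called peak has in the pattern was not tested.

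The H3K4me3 peak next to a flanking DLX3 peak usually held DLX3 itself. This was so for 11510 of the 14854 members (77.5%, interval 76.8 to 78.15%), while 63.9% of all H3K4me3 peaks held DLX3. The share was 71.97% (71.5 to 72.5%) for DLX3 peaks 10 to 100 kb away and 62.2% for those over 100 kb away. Displaced peaks that landed 1 to 10000 bp from the mark gave 72.6% on average (70.75 to 75.1%). The members' share was above each of the 10 displacements, and the displaced share was itself above that of the whole list. The part of clustering between off-mark and on-mark DLX3, which the displacements do not keep, was not tested.

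The margin was widest beside weak marks. In the weakest score class, 69.7% (68.45 to 71.0%) of members had a DLX3-holding neighbour, against 46.1% (44.9 to 47.4%) of all H3K4me3 peaks of that class, 58.6% for DLX3 peaks 10 to 100 kb away and 59.9% after displacement (56.1 to 65.0%). In the second class these values were 70.1%, 47.5%, 60.1% and 60.8%. In the strongest class they were close together, at 96.1%, 93.2%, 94.9% and 94.4%, since nearly all strong marks hold DLX3. Counting each H3K4me3 peak once, 8949 of the 25094 had at least 1 member, and 6613 of these (73.9%, 73.0 to 74.8%) held DLX3, against 58.3% of the 16145 without a member. In the weakest class the H3K4me3 peaks next to members measured 1194 bp in the median, and the class as a whole 1037 bp; the part of width in the higher share was not tested.

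**Figure D3:**
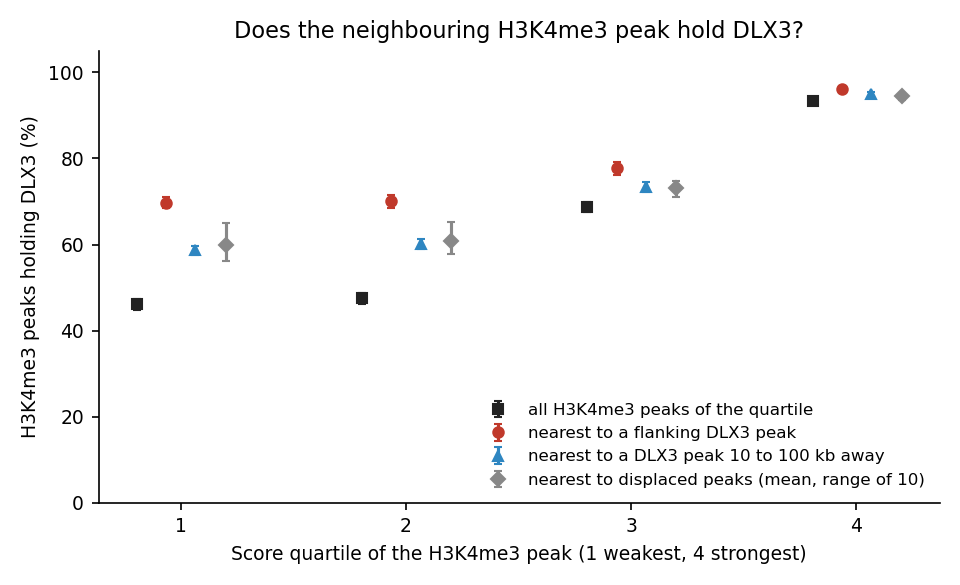
Share of H3K4me3 peaks that hold DLX3 (y axis, %) by their score class (x axis, weakest to strongest), for the whole list (black squares), the neighbours of flanking DLX3 peaks (red circles), of DLX3 peaks 10 to 100 kb away (blue triangles) and of displaced peaks (grey diamonds). Bars are 95% Wilson intervals, or the range of 10 displacements for the diamonds; red circles lie highest in each class, by the widest margin in the weakest, at 69.7%.

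Seen from the mark, H3K4me3 peaks holding DLX3 more often had a DLX3 peak beside them. Of the 16031 holding peaks, 41.3% (interval 40.5 to 42.0%) had at least 1 member for which they were the nearest mark, against 25.8% (24.9 to 26.7%) of the 9063 others, a difference of 15.5 percentage points. The difference was 29.5 points in the weakest score class (58.5% against 29.1%), 23.3 in the second, 9.36 in the third and 12.1 in the strongest (35.2% against 23.1%). The strongest class had only 425 peaks without DLX3, of which 98 had a member. Members on both sides were present at 20.2% (19.3 to 21.2%) of the holding peaks with any member and at 12.3% (11.02 to 13.7%) of the others.

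The contrast between holding and other marks was greatest at 1 to 5 kb from the mark and smaller both nearer and farther out. Counted by their midpoints, off-mark DLX3 peaks numbered 4.57 per 100 kb of flank at 2001 to 5000 bp from holding marks and 2.20 from the others, a ratio of 2.08. The ratio was 1.62 at 1 to 1000 bp, 2.04 at 1001 to 2000 bp, 1.85 at 5001 to 10000 bp, 1.71 at 10001 to 20000 bp and still 1.38 at 50001 to 100000 bp. In the weakest class the density at 1001 to 2000 bp was 8.07 beside holding marks and 2.825 beside the others, a ratio of 2.86, and at 50001 to 100000 bp the ratio was 1.525. Beside strongest-class marks that held DLX3, the density increased outward, from 2.496 at 1001 to 2000 bp to 4.41 at 5001 to 10000 bp and 4.61 at 20001 to 50000 bp. A peak whose midpoint is under 1 kb from the edge often overlaps the mark and is then no off-mark peak, so the first bin counts fewer of them.

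**Figure D4:**
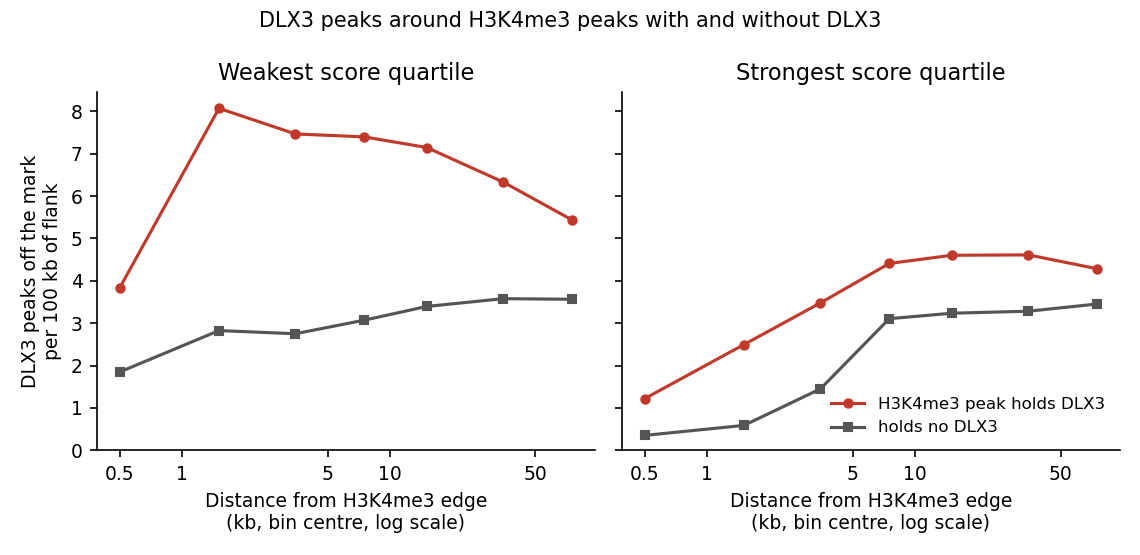
Off-mark DLX3 peaks per 100 kb of flank (y axis) by distance of their midpoint from the H3K4me3 edge (x axis, kb, log scale, points at bin centres), for the weakest (left) and strongest (right) score class. Red circles are H3K4me3 peaks that hold DLX3 and grey squares those that do not; red lies above grey in every bin, reaching 8.07 against 2.825 in the weakest class at 1 to 2 kb.

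Flanking peaks were usually weaker than the highest-scoring DLX3 peak inside the neighbouring mark. The peaks inside were taken from the whole DLX3 list without the width limit, and widths were not matched. Among the 11510 members beside a holding mark, 2765 (24.0%, interval 23.25 to 24.8%) scored higher than the highest DLX3 peak inside it. The share was 27.9%, 27.6% and 27.9% for the 3 lower classes of the mark and 14.6% (13.4 to 15.8%) for the strongest. The median score of the members was 86.0 and that of the inside scores, taken once per member, was 180.8. A mark thus counts once for each of its members. Over all narrow DLX3 peaks on the mark the median was 136.4. From the weakest to the strongest class of mark the members' medians were 90.7, 89.9, 81.5 and 81.2. The medians of the inside scores, again once per member, were 166.1, 164.1, 147 and 234.9, so the strongest class was highest and the third was lowest. Members beside marks without DLX3 had a median score of 78.55 and a median width of 901.5 bp, against 86.0 and 1020 bp beside holding marks.

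Strong flanking peaks more often than weak ones had a neighbouring mark that held DLX3, and that mark was weaker, though not at every step. From the lowest to the highest score decile of members, the share with a holding neighbour went from 73.6% (71.3 to 75.8%) to 82.0% (80 to 83.9%). The median score of the neighbouring H3K4me3 peak went from 309.4 to 166. The members' median width went from 766.5 to 1519 bp, and its part in these trends was not tested. The median distance to the mark stayed between 4479 and 4746 bp across all 10 deciles.

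Flanking peaks had close DLX3 neighbours. Another DLX3 peak lay within 5 kb of 11217 members (75.5%, interval 74.8 to 76.2%), against 58.4% of peaks 10 to 100 kb from the mark and 52.6% of those on it. The nearest other DLX3 peak was on the mark for 41.4% of members and was itself a member for 45.5%. When only DLX3 peaks off the mark were counted as neighbours, 56.6% (55.8 to 57.4%) of members had one within 5 kb, which is below the 58.4% farther out, where no neighbour within 5 kb is on the mark. Beside a mark without DLX3 the off-mark value was 44.8%, and beside a holding mark it was 60.1%. Close pairs were present as well, with another DLX3 peak within 200 bp of 2134 members (14.4%), and for 388 of them that peak was on the mark.

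Most marks with members had few. A single member was assigned to 5382 H3K4me3 peaks, 2 to 2156, 3 to 861, and 6 or more to few, with a maximum of 12. Members lay before their mark in chromosome order in 49.5% of cases (48.7 to 50.3%), and 14.4% had an H3K4me3 peak within 10 kb on either side. The fullest mark was an H3K4me3 peak of 2905 bp on chromosome 9 (63391980 to 63394884) with a score of 158.5 and 1 DLX3 peak inside, scoring 354.6. Its 12 members, 5 before and 7 after it, were 331 to 1215 bp wide and scored 50 to 171.2, all below the peak inside. An H3K4me3 peak of 995 bp on chromosome 5 (10859299 to 10860293, score 219) had 11 members, which scored 57.0 to 516.5 around an inside peak of 549.7. An H3K4me3 peak of 1484 bp on chromosome 2 (97692811 to 97694294, score 77.5) had 10, with a median score of 89.4. The highest of these is the member of score 972 named above, far over the inside peak of 102.7. All 3 marks were in the 2 lower score classes.

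**Figure D5:**
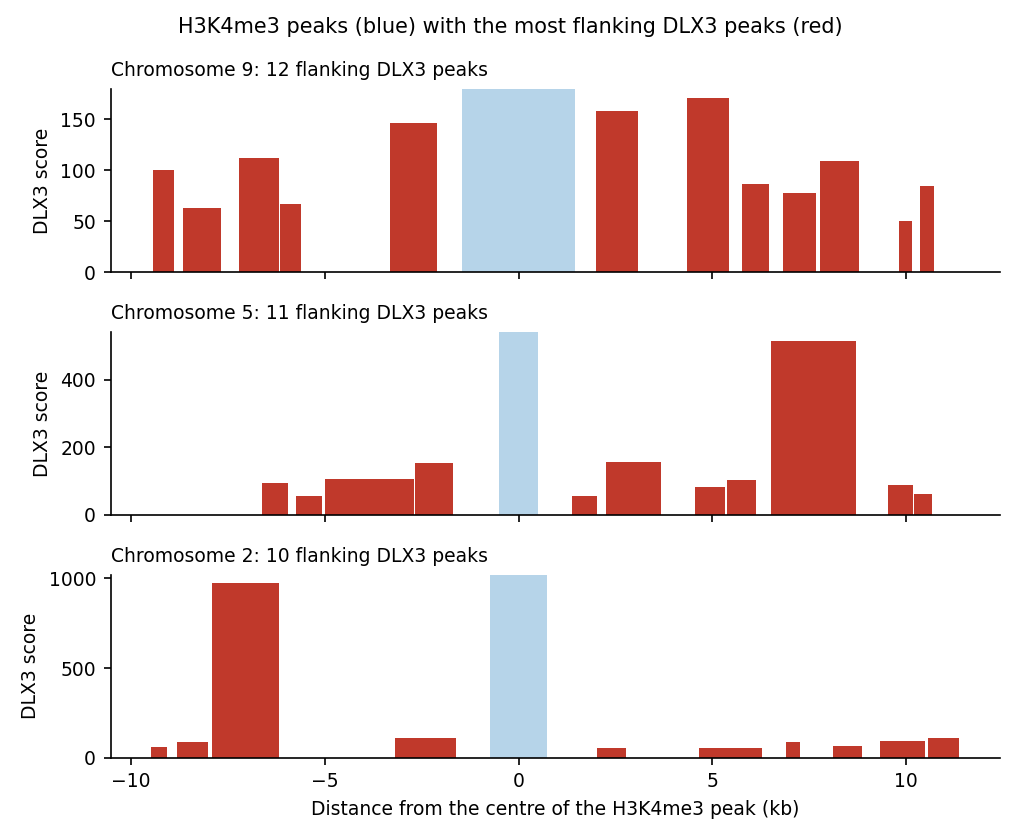
The 3 H3K4me3 peaks with the most flanking DLX3 peaks, on chromosomes 9, 5 and 2 from the top. The x axis is the distance from the centre of the H3K4me3 peak (kb), red bars are flanking DLX3 peaks drawn at their width with their score on the y axis, and the blue band is the H3K4me3 peak; DLX3 peaks inside the mark are not drawn, and 1 member on chromosome 2 reaches 972.

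Flanking peaks occurred on every chromosome in the lists, and their share differed more between chromosomes than their ratio to displaced peaks. They made up 17.9% of narrow DLX3 peaks on chromosome 2, the lowest autosome, and 29.5% on chromosome 12, the highest. Relative to displaced peaks, the share among off-mark peaks had a ratio between 0.949 (chromosome 8) and 1.05 (chromosome 1) on the 20 autosomes, above 1 on 11 and below 1 on 9. Median scores of members lay between 79.3 and 87.5 on the autosomes. Chromosome X had 111 members, 15.8% of its narrow DLX3 peaks (interval 13.3 to 18.6%), but 30.7% of those off the mark (26.1 to 35.6%), against 27.25% after displacement. The neighbouring mark held DLX3 for 81.1% of the X members (72.8 to 87.3%), and for 73.0 to 82.1% on the autosomes.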

How the data were processed

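The submitters' processing notes name build rn5 and the tools Bowtie (1.1.2), MACS (1.4.2) and HOMER, and their roles and cutoffs are not given in the sources used here. The authors deposited 1 peak list per ChIP library, with a score per peak; MACS of this version usually writes a multiple of −log10 of the p-value there, but the files have no header that says so. Depth is unknown. Overlap meant at least 1 bp shared. Distances were computed in Python (3.11.15, with numpy 2.4.6, pandas 2.3.3), equalled those of bedtools 2.31.1 for all 69263 DLX3 peaks, and were tested on simulated data. Displaced peaks leaving the span of a chromosome's peaks were dropped (at most 69 of 68122). H3K4me3 score classes are quartiles of the list.

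Members and measures were chosen with earlier results of these data known. Named regions are the 10 members of highest score, the 5 nearest the mark in the upper 10% by score, the 3 marks with most members, and peaks at each limit. Ratios to displaced peaks by class of the mark, the densities around marks, off-mark neighbours and flank coverage were added after seeing the data. Alternatives changed the score threshold, width, distance, overlap and joining. Gene lists, motifs and sequences need an rn5 reference and were not analysed here.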

Additional observations from a re-analysis of the deposited data

How the results depend on the processing

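With the upper 50% of DLX3 peaks by score there were 6532 members with a median score of 147 and width of 1229 bp, 65.0% had a DLX3-holding neighbour and 62.8% another DLX3 peak within 5 kb, the holding-minus-other difference was 11.7 points, and the ratios to displacement were 0.688 for all narrow peaks and 0.790 for the share beside the strongest class of mark. With the upper 50% of H3K4me3 peaks, redivided into 4 classes, these were 9615 members, 86.3, 1035 bp, 88.4%, 76.99% and 13.7 points, and the ratios for the weakest and strongest class were 1.06 and 0.975. Peaks overlapping the H3K4me3 peaks left out then count as off the mark. Ratios by class of mark in this section use the share among flanking peaks, not among off-mark peaks. With the main settings they were 1.24 for the weakest class and 0.826 for the strongest. A width limit of 2000 bp gave 79.3, 934 bp, 76.5%, 73.8%, 0.815 for all narrow peaks and 0.841 for the strongest class; no width limit gave 1000 bp. An outer limit of 5000 bp gave 8062 members, 1013 bp, 86.3% within 5 kb, 12.5 points, and ratios of 0.742, 1.31 (weakest) and 0.746 (strongest). An outer limit of 20000 bp gave 24511 members, 962 bp, 76.4%, 70.25%, 1.19 and 0.873, and leaving out the first 500 bp gave 74.6% within 5 kb. Distances from DLX3 midpoints gave 72.95%, 12.6 points, 0.745 and 0.811. Joining DLX3 peaks within 200 bp gave 75.99%, 72% within 5 kb, 14.1 points and 0.848, and joining H3K4me3 peaks within 1000 bp gave 79.8%, 17.4 points and 0.851. Displacing by 20 kb only gave 0.758 for all narrow peaks and 1.17 for the weakest class, and by 100 kb only 0.816. Displacing only peaks off the mark, with the share taken among those off the mark, gave 1.01 in place of 0.785. Peaks on the mark then leave the count, and their part in this change was not tested. For the weakest class the ratio stayed above 1, and for the strongest below 1, under each of the 12 settings run. With the upper 50% of H3K4me3 peaks, however, the weakest class held none of the former weakest marks. The strongest-class ratio of 0.975 in that run spanned 0.941 to 1.009 at 1 standard deviation over displacements, which includes 1. In the run with the upper 50% of DLX3 peaks, low scores were left out, which raises the median score. Holding and spacing were taken from that shorter list, which for a given member can only lower both. For all other movements the cause was not tested. No paired analysis was possible because each antibody has a single library, which also leaves none to omit in turn. The read depth behind both lists is not known, which limits what an absent peak shows.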

Other observations

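Strong DLX3 peaks were less often in the flank, but among peaks off the mark they were slightly more often there. In the lowest score decile of narrow DLX3 peaks, 24.7% were members (Wilson interval 23.7 to 25.7%), and in the highest 15.15% were (14.3 to 16.0%). Of the off-mark peaks in these deciles, 27.8% (26.6 to 28.9%) and 31.7% (30.1 to 33.3%) were members. For the off-mark peaks of the highest decile the share after displacement was 28.8% (26.8 to 30.5% over 10 displacements), and the ratio was 1.1. Of these strong members, 83.3% had a neighbouring mark that held DLX3, against 73.85% after displacement (71.0 to 79.0%), and 38.0% lay beside the weakest class of mark, against 28.8% (25.4 to 33.1%). With 1 library per antibody these differences have no replicate check.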
